A study of Sus scrofa with 20 samples.

Results

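Glycolysis turns glucose into pyruvate, and 8 of its enzyme genes were followed across 4 kinds of pig skin: HK1, HK2, GPI, TPI1, PGK1, ENO1, PKM and LDHA. They were chosen by symbol, 1 table row each, and all 8 were found among 19280 genes, of which 15275 passed the filter on low counts; all 8 passed. The skin came from 5 wild-type female Yorkshire pigs aged 4, 5, 6, 7 and 8 months, with punch biopsies from the sole of the foot, the snout, the upper side of the foot and the flank of each pig (5 libraries per site). No pig was treated. The question of the design was how the skin sites differ in gene expression, with the hairless, weight-bearing sole against haired trunk and foot skin and the snout.

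Hexokinases, here HK1 and HK2, trap glucose in the cell by phosphorylating it. GPI turns glucose 6-phosphate into fructose 6-phosphate, and TPI1 interconverts the triose phosphates made when the sugar is split. PGK1 makes ATP, ENO1 makes phosphoenolpyruvate, PKM makes pyruvate and a further ATP, and LDHA reduces pyruvate to lactate. Epidermis has no blood vessels of its own and is known for making much of its glucose into lactate even in air, while hexokinase 2, muscle enolase and muscle phosphoglycerate mutase are known for their part in insulin-sensitive or contracting tissue.

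The 20 libraries held 34077861 to 66906489 estimated counts, and the 8 genes had 2615 to 46131 counts in a library. Library numbers fall into a first set (12 libraries, pigs aged 4, 7 and 8 months) and a second set (8 libraries, pigs aged 5 and 6 months). In the first set the sites are those of the labels (volar for sole, snout, dorsal for upper foot, and flank). In the second set the labels go against the expression data, and each library was placed by its best match to the first set: the libraries labelled flank were placed with sole, those labelled volar with snout, those labelled snout with upper foot and those labelled dorsal with flank. Over the 2000 most variable genes, with the pathway and muscle genes left out, all 8 second-set libraries matched the site given here (Pearson r = 0.78 to 0.85), the nearest other site being upper foot for the flank libraries (r up to 0.72). Upper foot is also the deposited site of those flank libraries, so their labels go against expression least clearly. Flank had r = 0.79 against 0.72 for upper foot in the 6-month pig, and 0.83 against 0.58 in the 5-month pig. Every pooled result below rests on this placing, and by the deposited labels edgeR called no gene of the table in any comparison (unadjusted p under 0.05 for 1 member in volar against flank, 6 in volar against dorsal and 5 in volar against snout). Skeletal muscle genes were present in 3 snout libraries (pigs aged 5, 6 and 7 months), where 11 muscle genes summed to 5460, 9340 and 11800 CPM (counts relative to a common library total), against 11.2 to 39.4 CPM in the other 17 libraries. The libraries of the 6-month and 5-month pigs among these 3 are labelled volar. They are both snout libraries of the second set, so fits without the muscle libraries keep 2 snout libraries, both from the first set. Levels are CPM scaled by the trimmed mean of M values (TMM) unless said otherwise, and levels are compared between sites and not between genes, since gene lengths were not used.

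All 8 enzyme genes were higher in sole than in flank under TMM scaling, and 7 of them were higher in sole than in upper foot and than in snout; with scaling to library size alone GPI and PGK1 had values below 0 against each other site, and within the second set ENO1 did so against flank and upper foot and PKM against snout. HK1, HK2, LDHA and TPI1 showed the largest differences, between 2.39-fold and 3.02-fold against flank. GPI and PGK1 showed the smallest, 1.31-fold and 1.37-fold. Per-library values are given in the order of the pigs' ages, from 4 to 8 months.

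**Figure D1:**
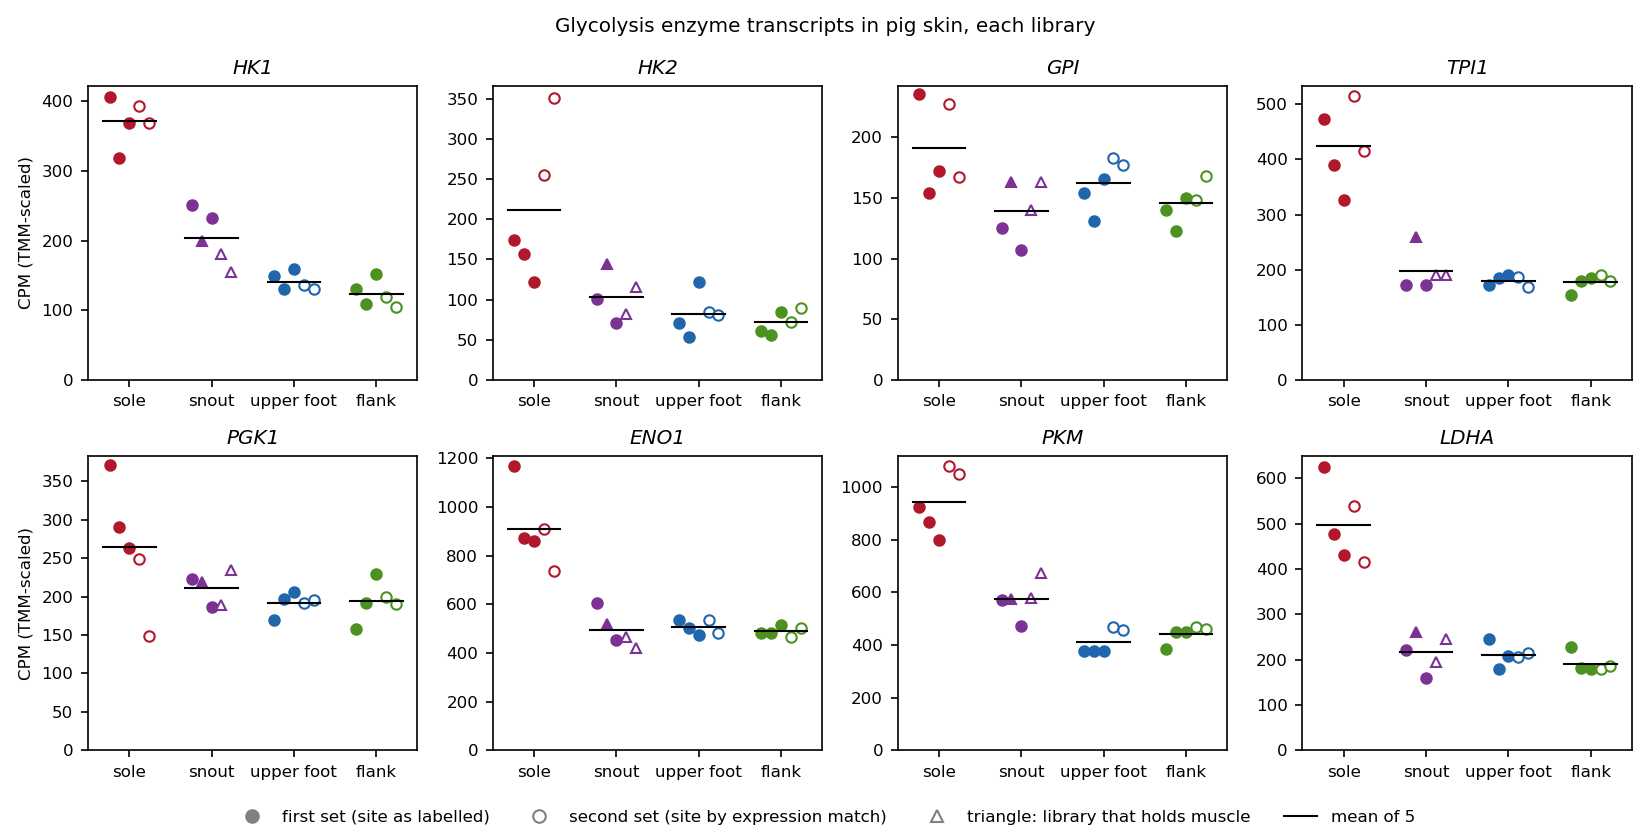
TMM-scaled CPM of each of the 8 genes (vertical axes, from 0) in each library by site; filled symbols are the first set, open symbols the second set, triangles the 3 libraries that hold muscle, and bars the means of 5. For HK1, TPI1, ENO1, PKM and LDHA the 5 sole libraries lie above all 15 others, whereas GPI and PGK1 overlap; with library-size scaling GPI and PGK1 turn to values below 0 in sole against flank, and so does ENO1 within the second set.

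HK1 (ENSSSCG00000010253), the hexokinase of most tissues, had 407, 394, 369, 318 and 369 CPM in sole. It had 251, 181, 155, 200 and 232 CPM in snout, 149, 136, 130, 131 and 160 CPM in upper foot, and 130, 119, 105, 109 and 152 CPM in flank. The lowest sole library stood above the highest library of any other site, and snout stood above flank without overlap. The log2 fold change of sole against flank was 1.59 ± 0.13 (SE; edgeR quasi-likelihood adjusted p = 2.28e-08), that against upper foot 1.40 ± 0.13 (adjusted p = 1.42e-07) and that against snout 0.86 ± 0.13 (adjusted p = 5.31e-05). Each of the 5 pigs had more HK1 in sole than in each of its other sites.

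HK2 (ENSSSCG00000008261), the hexokinase that insulin and hypoxia induce, was the most variable member. Sole libraries held 174, 255, 351, 157 and 122 CPM, so the pair from the second set (pigs aged 5 and 6 months) was the highest. The other sites held 101, 81.9, 116, 144 and 70.5 CPM in snout, 70.5, 84.1, 80.2, 53.0 and 122 CPM in upper foot, and 60.6, 71.6, 89.6, 56.2 and 84.9 CPM in flank. Sole lay above flank without overlap and overlapped snout. It also lay above upper foot without overlap, but by a narrow margin: both libraries of the 8-month pig round to 122 CPM. Sole exceeded flank by 1.54 ± 0.27 on the log2 scale (adjusted p = 0.000113), upper foot by 1.37 ± 0.27 (adjusted p = 0.000434) and snout by 1.04 ± 0.27 (edgeR adjusted p = 0.00527). Within the first set alone HK2 passed against flank (1.17 ± 0.33, adjusted p = 0.0199) but not against upper foot (0.89 ± 0.33, adjusted p = 0.0735) or snout (0.52 ± 0.33, adjusted p = 0.353). Within the second set the values were 1.90 ± 0.23, 1.89 ± 0.23 and 1.61 ± 0.23, and the difference between sets did not pass (for sole against snout 1.09 ± 0.47, adjusted p = 0.27). The log2 ratio of HK2 to HK1, which no library scaling alters, averaged -0.91 ± 0.58 in sole, -1.01 ± 0.56 in snout, -0.83 ± 0.36 in upper foot and -0.77 ± 0.33 in flank (SD, n = 5 each). No pair of sites passed in exact two-sided permutation tests (unadjusted p = 0.437 to 0.841 over the 6 pairs, adjusted p = 0.779 to 0.841 over 18 ratio tests). The difference of -0.13 between sole and flank was smaller than the spread of either site. The sole mean mixes the sets, with -1.28 ± 0.29 in the first and -0.35 ± 0.39 in the second (SD). Sole differed from flank by -0.31 in the first set and 0.13 in the second, and from upper foot by -0.35 and 0.34. Against snout the values were -0.11 and 0.43. The snout mean mixes libraries: the ratio was -1.14, -0.41 and -0.47 in the 3 with muscle (pigs aged 5, 6 and 7 months) and -1.32 and -1.72 in the other 2. Without those 3, snout lay below flank (-0.75) and below upper foot (-0.69) without overlap, each with exact permutation p = 0.0476, the smallest that 2 against 5 allows (adjusted p = 0.122). The 2 snout libraries left are both first set, whereas flank and upper foot hold both sets. The ratio averaged -0.97 in first-set and -0.48 in second-set flank, and -0.93 and -0.69 in upper foot. Muscle and set therefore cannot be told apart here.

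GPI (ENSSSCG00000002873), the isomerase of the next step, had the smallest differences against flank and upper foot. It had 236, 228, 167, 154 and 172 CPM in sole, 125, 140, 163, 163 and 107 CPM in snout, 154, 183, 177, 131 and 166 CPM in upper foot, and 140, 148, 168, 123 and 150 CPM in flank. The pigs aged 4 and 5 months had the highest sole values, and sole overlapped every other site. The log2 fold change passed the threshold for sole against flank (0.39 ± 0.14, edgeR adjusted p = 0.0268) and against snout (0.45 ± 0.14, adjusted p = 0.0184), not against upper foot (0.23 ± 0.14, adjusted p = 0.191). The call against flank was lost without the sole library of the 4-month pig (0.31, adjusted p = 0.081), without the flank library of the 7-month pig (0.34, adjusted p = 0.0697) and without the sole library of the 5-month pig (0.32, adjusted p = 0.0785). The call against snout was lost without the same sole libraries (adjusted p = 0.0505 and 0.0574) and without the snout library of the 8-month pig (adjusted p = 0.0525).

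TPI1 (ENSSSCG00000000685), which lets both pieces of the split sugar go on through the pathway, had 474, 515, 415, 390 and 327 CPM in sole. The values were 172, 190, 190, 260 and 172 CPM in snout, 172, 186, 168, 185 and 190 CPM in upper foot, and 154, 190, 179, 179 and 190 CPM in flank. Every sole library stood above every other library, and the highest of the rest was the 7-month snout library, 1 of the 3 with muscle genes. Sole exceeded flank by 1.26 ± 0.13 on the log2 scale (edgeR adjusted p = 2.12e-07), upper foot by 1.23 ± 0.13 (adjusted p = 3.77e-07) and snout by 1.11 ± 0.13 (adjusted p = 3.14e-06). Upper foot and flank averaged 180 ± 9.67 and 177 ± 13.9 CPM (SD, n = 5 each), and snout 197 ± 36.7 CPM, so these 3 neighbours in the order of levels did not differ beyond their spread.

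PGK1 (ENSSSCG00000012440), the first ATP-making enzyme of the pathway, had 371, 249, 149, 291 and 263 CPM in sole. It had 223, 189, 235, 219 and 187 CPM in snout, 169, 192, 196, 197 and 206 CPM in upper foot, and 158, 200, 190, 191 and 229 CPM in flank. In the 6-month pig the sole value was the lowest of its 4 sites, while in the other 4 pigs it was the highest. The log2 fold change was 0.45 ± 0.16 against flank (edgeR adjusted p = 0.0271), 0.47 ± 0.16 against upper foot (adjusted p = 0.0261) and 0.33 ± 0.16 against snout (adjusted p = 0.125). In the first set it was 0.68 ± 0.17 against flank (adjusted p = 0.0111) and in the second 0.02 ± 0.24 (adjusted p = 0.95); the difference between the sets, -0.65 ± 0.29, did not pass over all genes (adjusted p = 0.263). The call against flank was lost without the 4-month flank library (adjusted p = 0.0687), the 4-month sole library (adjusted p = 0.104) or the 7-month sole library (adjusted p = 0.0587). That against upper foot was lost without the 4-month sole, 4-month upper foot or 7-month sole library (adjusted p = 0.0967, 0.065 and 0.0574). Without the 6-month sole library PGK1 passed against snout as well (0.48, adjusted p = 0.00679).

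ENO1 (ENSSSCG00000022343), the enolase of most tissues, had 1170, 909, 737, 874 and 862 CPM in sole. Snout libraries held 606, 464, 420, 521 and 453 CPM, upper foot libraries 534, 534, 484, 501 and 475 CPM, and flank libraries 484, 468, 502, 482 and 516 CPM. All sole libraries were above all others, and the other 3 sites overlapped throughout. Sole exceeded flank by 0.89 ± 0.11 on the log2 scale (edgeR adjusted p = 4.08e-06), upper foot by 0.85 ± 0.11 (adjusted p = 8.96e-06) and snout by 0.88 ± 0.11 (adjusted p = 1.38e-05).

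PKM (ENSSSCG00000001930), the pyruvate kinase gene of most tissues outside liver and red cells, had 924, 1080, 1050, 868 and 799 CPM in sole. It had 571, 580, 674, 575 and 472 CPM in snout, 376, 470, 457, 379 and 376 CPM in upper foot, and 384, 468, 459, 449 and 451 CPM in flank. Sole stood above every other library and snout above every upper foot and flank library. The log2 fold change of sole was 1.09 ± 0.11 against flank (edgeR adjusted p = 3.25e-07), 1.20 ± 0.11 against upper foot (adjusted p = 1.72e-07) and 0.72 ± 0.11 against snout (adjusted p = 9.11e-05). The M1 and M2 splice forms of PKM are summed in the gene row and cannot be told apart.

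LDHA (ENSSSCG00000013366), which makes lactate, had 625, 539, 415, 478 and 432 CPM in sole. Snout held 221, 194, 246, 261 and 159 CPM, upper foot 246, 207, 214, 179 and 209 CPM, and flank 229, 180, 186, 181 and 180 CPM. The sole libraries again stood clear of all 15 others, and the other sites overlapped. The log2 fold change was 1.38 ± 0.14 against flank (edgeR adjusted p = 2.47e-07), 1.24 ± 0.14 against upper foot (adjusted p = 1.12e-06) and 1.20 ± 0.14 against snout (adjusted p = 4e-06).

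The counts of members called have to be read against many calls in the whole table. Between sole and flank 8 of 8 members were higher (adjusted p under 0.05 over 15275 genes), where 51.9% of all genes were called in either direction and 24.2% were called higher. For 6 members all sole libraries stood above all flank libraries, which 15.4% of all genes showed. Between sole and upper foot 7 of 8 were higher (all but GPI), against 45.6% of all genes called and 23% higher, and 6 members stood above without overlap, as 16.9% of all genes did. Between sole and snout 7 of 8 were higher (all but PGK1), against 36% called and 16.9% higher, and 5 members stood above without overlap, as 10.2% of all genes did. The median log2 fold change of the 8 genes was 1.18, 1.22 and 0.87 in these comparisons, that of all genes -0.04, -0.03 and -0.02. Within the first set, where no library was moved, 7, 6 and 5 members were higher (16.9%, 14% and 5.71% of all genes called higher). Within the second set 6 members were higher in each comparison (21.4%, 20.4% and 17.6% called higher). The test for any difference between sites passed for 7 members, all but PGK1 (adjusted p = 0.0557), and for 56.2% of all genes. No member's difference between sets passed over all genes by edgeR; at an unadjusted p under 0.05 stood PGK1 in each of the 3 comparisons and HK1 and HK2 against snout.

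**Figure D2:**
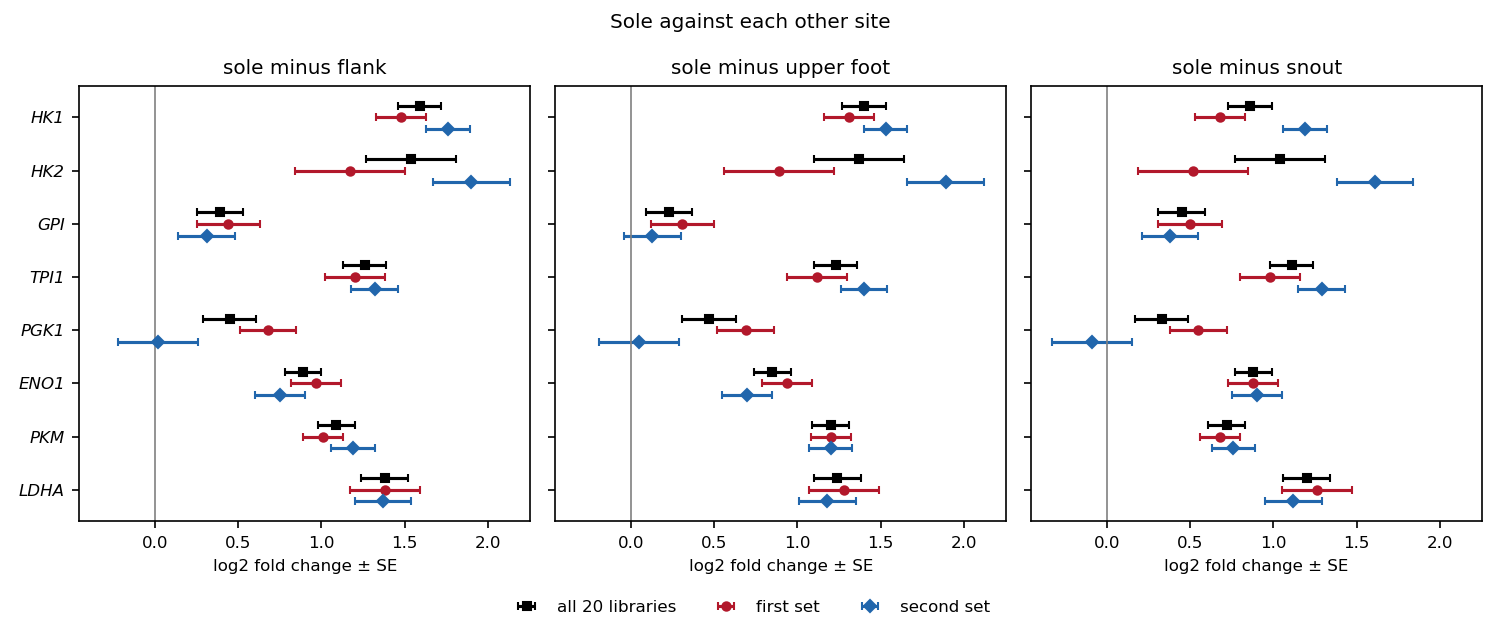
Log2 fold change (horizontal axis, bars SE) of sole against flank, upper foot and snout for each member, from all 20 libraries (squares), the first set (circles) and the second set (diamonds), TMM-scaled. HK1, TPI1, ENO1, PKM and LDHA lie to the right of 0 in both sets; PGK1 is at 0.02 against flank in the second set and 0.68 in the first, and with library-size scaling GPI and PGK1 lie left of 0 in each comparison, as do ENO1 (against flank and upper foot) and PKM (against snout) within the second set.

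How far the members stood above zero depended on the scaling, and a few epidermal transcripts dominated the sole libraries. KRT1, the keratin of differentiating epidermis, took 14.6% to 26.7% of the counts of sole libraries and 0.365% to 1.88% elsewhere, and TMM factors were 0.569 to 0.812 in sole and 0.981 to 1.291 elsewhere. As a plain share of the counts, the 8 members made up 0.324%, 0.237%, 0.21%, 0.287% and 0.269% of the sole libraries. The shares were 0.207% to 0.251% in snout, 0.227% to 0.232% in upper foot and 0.181% to 0.214% in flank, so that sole was above the others in the first set and overlapped them in the second. Scaled to library size alone, the median of all genes moved to -0.69 for sole against flank, -0.82 against upper foot and -0.64 against snout, and the members lay 1.19, 1.22 and 0.89 above it, close to their distance under TMM. On that scale HK1 (0.93, adjusted p = 2.35e-05), HK2 (0.81, adjusted p = 0.00328), TPI1 (0.58, adjusted p = 0.00039), PKM (0.42, adjusted p = 0.00187) and LDHA (0.72, adjusted p = 0.000581) still passed as higher in sole than in flank by edgeR, and ENO1 did not (0.24, adjusted p = 0.167). GPI (-0.27, adjusted p = 0.0917) and PGK1 (-0.17, adjusted p = 0.485) had negative values against flank. Against upper foot GPI passed as lower in sole on that scale (-0.57, adjusted p = 0.00135). In the second set alone library-size scaling gave GPI (-0.56, adjusted p = 0.0359) and PGK1 (-0.85, adjusted p = 0.0162) as lower in sole than in flank. ENO1 had -0.12 against flank (adjusted p = 0.538) and -0.36 against upper foot (adjusted p = 0.0878) there, and PKM had -0.13 against snout (adjusted p = 0.45). Only TPI1 and LDHA passed against snout with library-size scaling of all 20 libraries. In plain CPM, GPI had 175, 129, 95.8, 125 and 138 in sole and 157, 145, 188, 146 and 165 in flank. With the 20 most abundant genes left out as well, library-size scaling gave 0.05 for GPI and 0.13 for PGK1 against flank. In the pooled fit against flank, GPI and PGK1 thus stood higher in sole relative to the typical gene. As a share of the library they did not. Under TMM within single sets, GPI did not pass against flank (edgeR adjusted p = 0.101 in the first set and 0.18 in the second). PGK1 passed in the first set (0.68 ± 0.17, adjusted p = 0.0111) but not in the second (0.02 ± 0.24, adjusted p = 0.95).

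**Figure D3:**
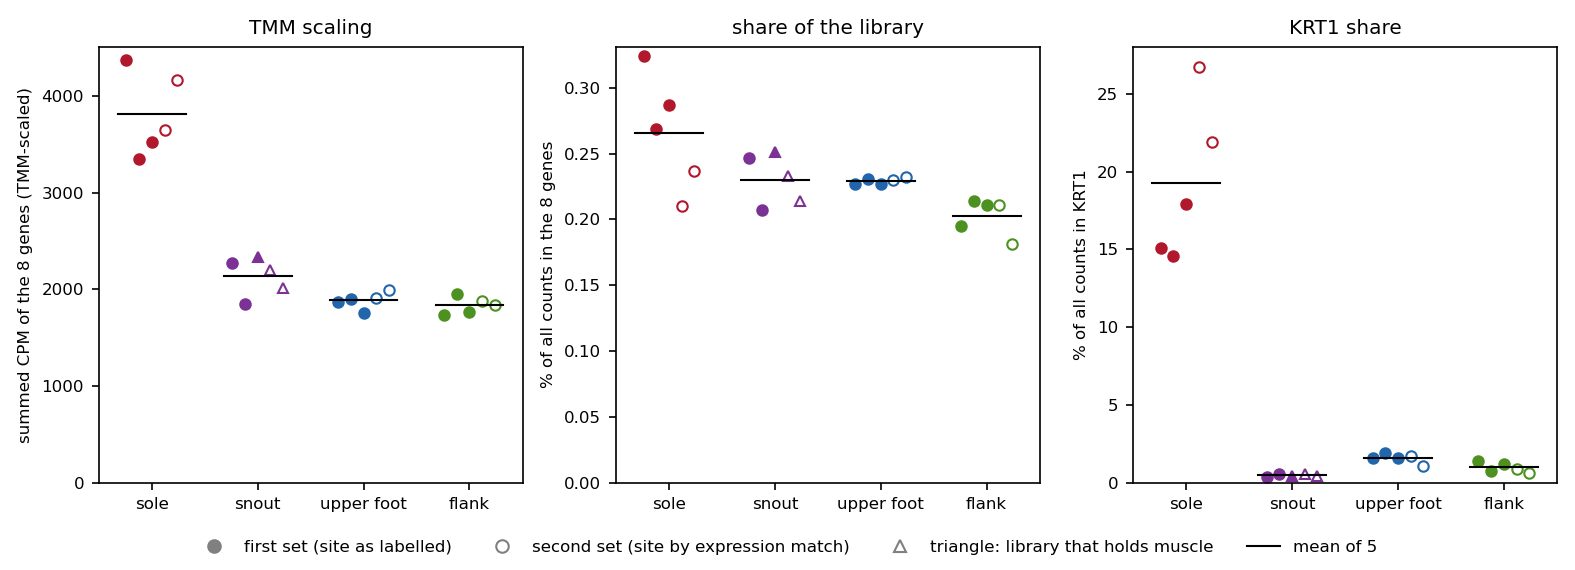
Summed TMM-scaled CPM of the 8 genes, their plain share of all counts in %, and the share of KRT1 in %, each library by site with symbols as in the plot of single genes and bars for the mean of 5. The sum separates sole (3350 to 4380 CPM) from all other libraries (1740 to 2340 CPM), while the plain share of the second-set sole libraries (0.237% and 0.21%) overlaps the other sites.

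Markers of other cell types moved with the sole. In sole against flank 24.2% of all genes were called higher and 27.7% lower. Of 12 tested genes of differentiating keratinocytes, 11 were higher and 1 lower in sole than in flank (median log2 fold change 2.81), and their sum ran from 264000 to 620000 CPM in sole, 25900 to 39500 CPM in snout, 21500 to 34300 CPM in upper foot and 15100 to 27100 CPM in flank. KRT1 alone took 14.6% to 26.7% of all counts in sole libraries and made up most of their sum. Of 5 basal keratinocyte genes 4 were higher and 1 lower (median 1.45), with sums of 3770 to 4730 CPM in sole and 1310 to 2360 CPM in flank. All 8 fibroblast genes were lower (median -2.30; sums 6390 to 38100 CPM in sole and 103000 to 231000 CPM in flank), as were 8 of 9 adipocyte genes (103 to 233 CPM and 342 to 3480 CPM) and 8 of 8 hair genes (2.35 to 31.6 CPM and 490 to 17200 CPM). Of 7 tested immune genes 6 were lower (median -1.32; sums 44.3 to 143 CPM in sole and 132 to 311 CPM in flank, overlapping). The sum of 5 sweat gland genes was higher without overlap, 511 to 5390 CPM in sole, 46 to 116 CPM in snout, 77.4 to 115 CPM in upper foot and 116 to 217 CPM in flank. That sum was carried by AQP5, a water channel, with 2130, 5380, 4140, 1440 and 497 CPM in sole and 2.06, 12.9, 27.1, 14.3 and 7.13 CPM in flank; 3 of the other 4 genes were lower in sole. The sum of 6 endothelial genes overlapped (341 to 563 CPM in sole and 350 to 596 CPM in flank). Muscle genes were near 0 in both sites (11.2 to 23.6 CPM in sole and 19.1 to 39.4 CPM in flank). The part of these cell types in the enzyme levels was not tested, and in whole skin fewer cells of a type and less RNA per cell cannot be told apart.

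Comparisons without the sole gave fewer calls, among the members and among all genes. In snout against flank, HK1 (log2 fold change 0.73 ± 0.13, edgeR adjusted p = 0.00037) and PKM (0.38 ± 0.11, adjusted p = 0.0181) were higher, 2 of 8 members where 25.5% of all genes were called and 13.6% called higher. In snout against upper foot the same pair passed, HK1 with 0.53 ± 0.13 (adjusted p = 0.00585) and PKM with 0.48 ± 0.11 (adjusted p = 0.00465), where 19.3% of all genes were called and 11.7% called higher. Without the 3 libraries that hold muscle HK1 kept its call in both comparisons (0.97, adjusted p = 0.000243, against flank; 0.78, adjusted p = 0.00237, against upper foot). PKM did not pass without them (0.23, adjusted p = 0.338, and 0.34, adjusted p = 0.186), nor against flank without the 6-month snout library alone (0.31, adjusted p = 0.0578). Without the muscle libraries snout had 2 libraries, both first set, against flank and upper foot libraries of both sets. HK1 averaged 228 CPM in first-set and 168 CPM in second-set snout libraries, and PKM 539 and 627 CPM. Muscle and set therefore cannot be told apart in these fits. With all 20 libraries the other 6 members had values between -0.22 and 0.50 in snout against flank and snout against upper foot. Between upper foot and flank 0 members were called by edgeR or DESeq2, and 0 had an unadjusted p under 0.05 in either. Values ran from -0.10 (PKM) to 0.20 (HK1), where 1.16% of all genes were called.

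Enolase showed the muscle libraries clearly; muscle is known to use its own enolase gene. ENO3, the muscle enolase, had 235, 303 and 383 CPM in the snout libraries of the pigs aged 5, 6 and 7 months, against 2.31 to 5.45 CPM in the other 17 libraries. ENO1 did not follow it, with 464, 420 and 521 CPM in those 3 and 606 and 453 CPM in the other 2 snout libraries. The log2 ratio of ENO3 to ENO1 was -0.98, -0.47 and -0.44 in the muscle libraries and -7.31 and -6.87 in the other 2 snout libraries. In the remaining sites it averaged -7.99 ± 0.33 in sole, -7.07 ± 0.35 in upper foot and -6.62 ± 0.13 in flank (SD, n = 5 each), without overlap between sole and flank or between upper foot and flank. The differences of -1.37 and -0.45 each had an exact two-sided permutation p = 0.00794, the smallest that 5 against 5 allows (adjusted p = 0.0476 over 18 ratio tests); that of sole and upper foot was -0.92 (adjusted p = 0.0716). The passing adjusted values are fragile: without the 3 muscle libraries both became 0.0715 with the same differences, and neither passed when any 1 sole or flank library was left out (0.0715 to 0.0716). Without the upper foot library of the 8-month pig the difference of upper foot and flank was -0.29 (adjusted p = 0.0716). These tests leave out the pairing by pig. Within pigs the ratio was lower in all 5 for sole against flank (-1.68 to -1.05), sole against upper foot (-1.46 to -0.55) and upper foot against flank (-1.12 to -0.05), and an exact two-sided sign-flip test gave p = 0.0625 for each, the smallest that 5 pigs allow (adjusted p = 0.225). ENO3 itself was not called between sole and flank (-0.50 ± 0.79, edgeR adjusted p = 0.625), although its sole libraries (2.85 to 3.88 CPM) all lay below its flank libraries (4.35 to 5.45 CPM). That fit used 1 estimate of the spread of ENO3 over all 20 libraries, the 3 with muscle among them. Equal levels are therefore not shown by the missing call. The LDHB row held 0 to 5 counts in every library, too few for a ratio to LDHA to be read.

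**Figure D4:**
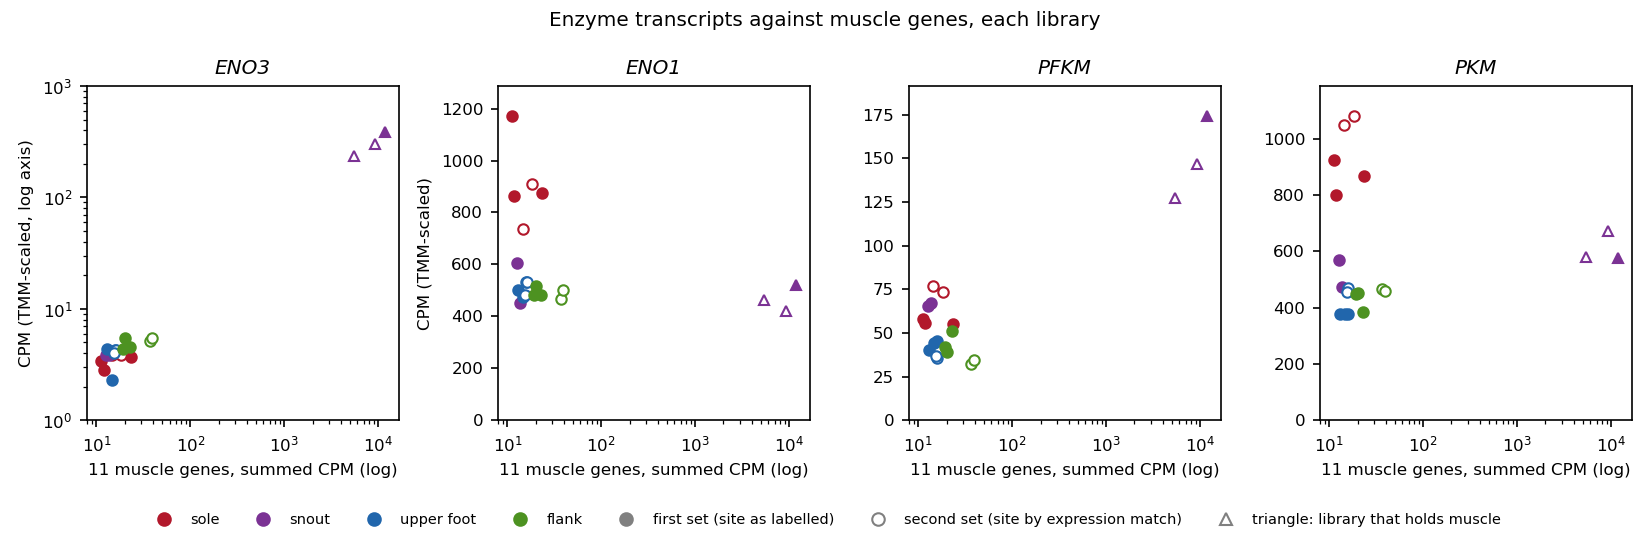
TMM-scaled CPM (vertical axes; log axis for ENO3) of ENO3, ENO1, PFKM and PKM against the summed CPM of 11 muscle genes (log axis) in each library, coloured by site, with triangles for the 3 muscle libraries. ENO3 and PFKM are high in the 3 muscle libraries at the right, ENO1 is not, and PKM is highest in sole.

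PFKM, the muscle form of phosphofructokinase, which commits sugar to glycolysis, had 127, 147 and 174 CPM in the muscle libraries and 65.2 and 67 CPM in the other 2 snout libraries. Sole held 54.9 to 76.9 CPM and flank 32.2 to 51.1 CPM. Snout exceeded flank in PFKM also without the muscle libraries (0.73, edgeR adjusted p = 0.0113). PGAM2, the muscle phosphoglycerate mutase, had 4145, 3231 and 7487 counts in the muscle libraries and at most 60 in any other, and ALDOA had 69.1, 110 and 158 CPM there and 0.825 to 3.69 CPM elsewhere. ALDOA had 0.825 to 1.86 CPM in sole and 2.27 to 3.69 CPM in flank, without overlap, and was not called (-1.12 ± 0.77, edgeR adjusted p = 0.236). ALDOA is known as the aldolase of muscle and of many other tissues in mammals; its low level elsewhere is that of its 1 row in the table (ENSSSCG00000032556).

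Of 17 other enzyme genes of the pathway, 16 had a row and 13 passed the filter. In sole against flank 5 of these were higher, where 24.2% of all genes were called higher. GAPDH, which oxidises glyceraldehyde 3-phosphate, had 3410, 3070, 2380, 2380 and 2400 CPM in sole and 804, 1290, 1250, 1040 and 1190 CPM in flank (log2 fold change 1.29 ± 0.19, edgeR adjusted p = 1.4e-05), without overlap. PGAM1, the mutase of most tissues, was higher by 0.79 ± 0.07 (adjusted p = 1.15e-07), with 431 to 492 CPM in sole and 257 to 270 CPM in flank. PFKP, the platelet form of phosphofructokinase, had 112 to 157 CPM in sole and 39.2 to 75.0 CPM in flank (1.25 ± 0.20, adjusted p = 4.99e-05). GAPDHS, known as the sperm form, was higher too (2.00 ± 0.25, adjusted p = 2.27e-06) at 6.30 to 14.0 CPM in sole and 1.39 to 3.22 CPM in flank, and PFKM passed (0.68 ± 0.22, adjusted p = 0.0154) but had a value of -0.01 with library-size scaling. HK3, HKDC1, PFKL, ALDOA, ALDOC, PGAM2, ENO2 and ENO3 did not pass; with the pig as block HK3 passed as lower (-0.40, adjusted p = 0.00642). Against upper foot 5 were higher and 1 lower (23% of all genes called higher and 22.6% lower). Against snout 4 were higher and 5 lower (16.9% of all genes called higher and 19.1% lower). Among the lower were PFKM, ALDOA, PGAM2 and ENO3, the genes high in the muscle libraries. With the pig as block GAPDHS lost its call against snout (0.63, adjusted p = 0.0553) and PFKL gained one (0.41, adjusted p = 0.0158). GAPDH did not pass against snout (0.45 ± 0.18, adjusted p = 0.0623), but passed with the pig as block (0.48, adjusted p = 0.0426) and without the muscle libraries (0.90, adjusted p = 0.00996).

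**Figure D5:**
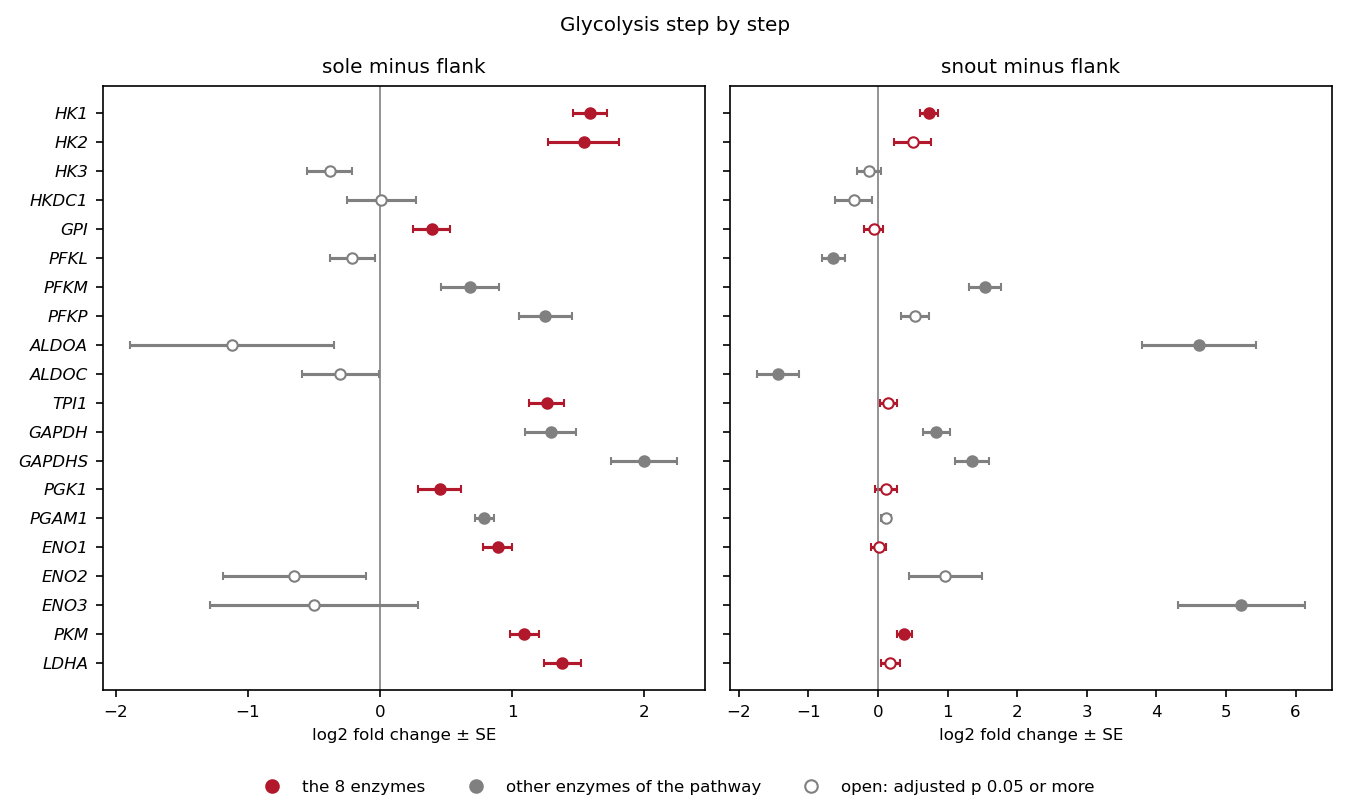
Log2 fold change (horizontal axis, bars SE, TMM-scaled) of the 8 members (red) and 12 other enzymes (grey) in pathway order, for sole against flank and snout against flank; open symbols did not pass, and PGAM2, with 0 counts in most libraries, is not drawn. Sole is higher than flank in at least 1 gene of each step but aldolase, and the snout differences of ALDOA and ENO3 turn to -0.12 and -0.38 without the 3 muscle libraries; with library-size scaling GPI, PGK1 and PFKM turn negative in sole against flank, and ENO1 within the second set.

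The genes around the pathway did not move as a block between sole and flank, where 24.2% of all genes were called higher and 27.7% lower. Of 14 regulators 4 were higher and 2 lower (median 0.27): PFKFB2, which makes the activator of phosphofructokinase, was higher by 2.52 ± 0.24 (edgeR adjusted p = 1.41e-07), with 194, 174, 231, 256 and 174 CPM in sole and 37.9, 25.5, 33.4, 58.2 and 24.3 CPM in flank. PDK4, which shuts pyruvate out of the citric acid cycle, was lower (-3.57 ± 0.96, adjusted p = 0.00437), with 1.19 to 23.6 CPM in sole and 33.0 to 316 CPM in flank. Of 15 genes known to be induced by hypoxia 7 were higher and 2 lower (median 0.22), among them EGLN1, an oxygen sensor (1.09 ± 0.13, adjusted p = 1.4e-06), and P4HA1, a collagen prolyl hydroxylase, which was lower (-1.29 ± 0.25, adjusted p = 0.000316). Of 6 transport genes 1 was higher and 2 were lower (median -0.29), among them SLC2A4, the insulin-regulated glucose transporter (-3.52 ± 0.83, adjusted p = 0.00162), and SLC16A7, a lactate and pyruvate carrier (-2.68 ± 0.30, adjusted p = 8.06e-07). SLC2A4 had 0.594 to 2.41 CPM in sole and 2.98 to 34.1 CPM in flank. The transporters SLC2A1, SLC2A3 and SLC16A1 were not analysed here.

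Gluconeogenesis, which runs opposite to glycolysis, was represented by 8 genes, of which 6 were lower in sole than in flank (median -1.63). In that comparison 24.2% of all genes were called higher and 27.7% lower. FBP1, which removes the phosphate that phosphofructokinase adds, had 1.87, 3.81, 3.25, 4.37 and 2.08 CPM in sole and 12.1, 25.1, 64.0, 7.63 and 22.8 CPM in flank (-3.10 ± 0.58, edgeR adjusted p = 2e-04), without overlap. PCK2 (-1.56 ± 0.29, adjusted p = 0.000199) and PC (-2.08 ± 0.46, adjusted p = 0.00097), enzymes that lead oxaloacetate and pyruvate back towards glucose, were lower too. Adipocyte genes, from a cell type known to express some of these enzymes, were lower in sole as well, and their part in this was not tested. Among 20 genes of pyruvate entry and the citric acid cycle 5 were higher and 5 lower (median -0.02): OGDH (1.60 ± 0.13, adjusted p = 1.84e-08) and MDH2 (0.97 ± 0.10, adjusted p = 4.76e-07) were higher, and SDHA (-1.01 ± 0.20, adjusted p = 0.000293) was lower. Of 9 glycogen genes 3 were higher and 2 lower, with PYGB, the brain form of glycogen phosphorylase, at -2.32 ± 0.30 (adjusted p = 4.83e-06).

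The levels of the 8 members were related across the 20 libraries. Pearson r of log2 CPM between members ran from 0.35 to 0.93 over 28 pairs (median 0.74), and after the site means were taken out from -0.36 to 0.67 (median 0.27). These are descriptions over libraries that share their scaling and their mix of cells. Outside the lists, genes most like the mean of the 8 standardised members included PGP, NAA10, ARG1, PPP2R2C, STUB1, AK1 and ASS1 (r = 0.92 to 0.93 over 20 libraries, 9694 genes ranked). ARG1, the arginase of the urea cycle, averaged 108 ± 78.8 CPM in sole, 2.74 ± 1.78 CPM in snout, 0.955 ± 0.745 CPM in upper foot and 0.821 ± 0.605 CPM in flank (SD, n = 5 each), and was also the gene most like TPI1 (r = 0.95). PGP, a phosphatase that clears side products of glycolysis, averaged 30.6 ± 7.24 CPM in sole, 18.8 ± 2.63 CPM in snout, 14.1 ± 1.88 CPM in upper foot and 14.3 ± 1.94 CPM in flank. Taken singly, HK1 was most like CBR3 (r = 0.98), HK2 most like UBQLN1 (0.92), GPI most like ME2 (0.80) and PGK1 most like GTF2A2 (0.84). ENO1 was most like NAA10 (0.93) and LDHA most like RHCG (0.93), an ammonium transporter at 608 ± 177 CPM in sole and 5.69 ± 2.82 CPM in flank.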

How the data were processed

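RNA-seq of 4 mm skin punches from 4 sites of 5 pigs gave 20 libraries (stranded mRNA kit, per the labels' protocols). The authors deposited estimated counts per Ensembl gene, quantified by Salmon according to the submitters' processing notes. Build, annotation and Salmon version: not given in the sources used here; no coordinates or sequences are printed. Of the values 42.2% were not whole, and they were rounded. No column lacked a sample. Symbols matched 14821 of 19280 identifiers.

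The members, gene lists, site placing and tests were chosen with earlier results of these data known. Sites were tested by the robust quasi-likelihood F test of edgeR 4.0.16 (R 4.3.3) with TMM scaling, filterByExpr by site (count minimum 10, total minimum 15), all 20 libraries in 1 fit of site means (16 residual degrees of freedom; 8 in the first set, 4 in the second) and Benjamini-Hochberg adjusted p under 0.05 over all genes tested. The first-set fit tested 15302 genes and the second-set fit 15280. A site by set interaction was fitted too. Isoenzyme ratios (0.5 added to counts) had exact permutation tests over libraries and, added after seeing the data, exact sign-flip tests within pigs. Alternatives were DESeq2 1.42.0, other scalings, no filter, the pig as block, the set as a term, single sets, deposited labels, libraries left out and the 20 most abundant genes left out; library-size scaling was added after seeing the data.

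Each pig gave all 4 sites, by its age in the labels, so libraries are paired by pig. Deviations from the site means of each set correlated within a pig at a median r of 0.18 (0.03 to 0.4) among first-set pigs and 0.3 (0.15 to 0.47) among second-set pigs. With 2 second-set pigs per site, the deviations of 1 pig mirror those of the other, so each r is counted for both. The values of the sets therefore cannot be compared, and correlations between different pigs are not given. Each pig is 1 animal, and harvest dates go with pigs, so they are balanced over sites. No libraries were copies (highest r 0.986). On simulated counts for sole against flank over 15275 genes, 64 of 100 genes changed 2-fold and 91 of 100 changed 4-fold were recovered, with 4 false calls. Only those genes were changed, all upwards in sole, whereas 51.9% of all genes were called in the data. The dominance of a few transcripts in sole was not simulated either. These figures therefore do not give the recovery or false calls of the real fit. Members were named in every comparison and other enzymes where they passed or were needed beside a member; of other lists up to 4 genes with the smallest adjusted p could be named, and most-alike genes were those with the highest r and a mean of at least 5 CPM. Enzyme genes are known to have processed copies in mammalian genomes, and how reads were shared between copies was not tested. Some genes of these lists and rankings are not reported here.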

Additional observations from a re-analysis of the deposited data

Results flagged for a closer look

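A few single libraries lay far from the other 4 of their site, by a rule that chance meets in about 1 of 20 groups. The rule was applied at each site to each member and to the ratios of HK2 to HK1 and of ENO3 to ENO1. Some of the libraries below can therefore have met it by chance. TPI1 reached 260 CPM in the snout library of the 7-month pig, where the other 4 snout libraries had 172 to 190 CPM; that library holds muscle genes (11 genes summing to 11800 CPM), and their part in its TPI1 level was not tested. The flank library of the 4-month pig stood apart for a pair of members, with PKM at 384 CPM (the other 4 at 449 to 468 CPM) and LDHA at 229 CPM (the other 4 at 180 to 186 CPM). The log2 ratio of ENO3 to ENO1 was -7.68 in the upper foot library of the 8-month pig, where the other 4 had -6.97 to -6.84.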

How the results depend on the processing

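Against the 8, 7, 7, 2, 2 and 0 members called in the 6 comparisons (sole against flank, upper foot and snout; snout against flank and upper foot; upper foot against flank) and the 7 called for any site, DESeq2 gave 8, 7, 7, 2, 2 and 0, and 8 for any site. The replicate block, with the pig as block, gave 8, 7, 7, 2, 2, 0 and 7 and changed no call of a member. Among other enzymes beyond those given above, PFKP gained a call with the block in snout against flank (0.55, adjusted p = 0.000892) and upper foot (0.45, adjusted p = 0.00423), and PFKL in snout against upper foot (-0.45, adjusted p = 0.0144). Leaving out 1 library at a time gave 6 to 8, 6 to 7, 6 to 8, 1 to 2, 2 to 2 and 0 to 0, and 6 to 8 for any site. With the deposited labels 0 members were called in each. Library-size scaling gave 5 in sole against flank, 2 in sole against snout and 1 in snout against upper foot; in the first set alone it gave 5, 4, 3, 1 and 0 and any site 4, and in the second set 6 in sole against flank (4 higher, 2 lower), 4 in sole against upper foot (2 higher, 2 lower), 3 in sole against snout (2 higher, 1 lower), 1 and 0 for snout, and any site 4. Leaving out the 3 muscle libraries gave 1 for snout against flank and 1 against upper foot; the first set without its muscle library gave 4 for sole against snout and 1 and 1 for snout. Either set alone gave 1 for snout against flank, and the second set 0 for snout against upper foot. Without the 20 most abundant genes and with library-size scaling snout against flank gave 1.

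Directions turned in the following fits. With library-size scaling, sole against flank gave GPI -0.27 (first set -0.10, second set -0.56), PGK1 -0.17 (second set -0.85), ENO1 -0.12 in the second set, PFKM -0.01, PYGL -0.37 and IDH3A -0.11. Sole against upper foot gave GPI -0.57 (second set -0.93), PGK1 -0.30 (second set -1.01), ENO1 -0.36 in the second set and PFKM -0.17. Sole against snout gave GPI -0.18 (second set -0.51), PGK1 -0.98 and PKM -0.13 in the second set, and GAPDHS -0.03. With the deposited labels, sole against flank gave HK2 -0.31, SLC2A4 0.12, SLC5A1 -0.56, EPAS1 -0.37, PFKFB4 -0.17, EGLN1 -0.09, MXI1 -0.21, ERO1A -0.38 and FBP1 0.63. With those labels sole against upper foot gave ENO2 0.07, sole against snout gave PFKM 0.22, ALDOA 0.13, PGAM2 0.52 and ENO3 0.46, and snout against flank gave HK1 -0.28, PKM -0.42, GAPDH -0.08 and GAPDHS -0.51. Without the 3 muscle libraries PGAM2 had 1.28 in sole against snout, ALDOA -0.12 and ENO3 -0.38 in snout against flank, and ENO3 0 in snout against upper foot. The cause was not tested. The adjusted p-values of the turned values that passed were 0.0359 (GPI) and 0.0162 (PGK1) against flank and 0.00135, 0.0043 (GPI) and 0.00699 (PGK1) against upper foot, 0.00917 (PGK1) against snout and 0.00851 (PYGL) against flank, all with library-size scaling. The rows of PKLR, LDHB and LDHC held at most 7 counts in a library and did not pass the filter. Why these rows were low was not tested.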
